A study of Mus musculus with 7 samples.

Results

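The interferon-induced effector genes are the antiviral and signalling genes that cells switch on after an interferon signal. The 36 described here were chosen by name from the deposited results table, and each of the 36 had 1 row among its 16760 genes. They were sorted by gene family into 5 OAS, 4 IFIT, 3 GBP and 4 IRG genes, 3 transcription factors and 17 others. RNA sequencing had been run on CD150-negative mouse cells (CD150 is encoded by Slamf1), which the labels class as haematopoietic stem cells (HSC). Of the 7 libraries 4 were wild-type (WT) and 3 carried a deletion at band 5G2 of chromosome 5, here 5G2del, and strain C57/B6 was the background of both groups. Band 5G2 corresponds to human 7q22, a segment often lost in myeloid malignancies. The sources used here do not give age, sex, treatment, zygosity, the ends of the deletion, or whether animals were pooled or separate. The p-values therefore measure only how far these libraries spread, which may be technical. The columns name the group of a library but not its sample, so the libraries are lettered, 5G2del-A, -B and -C beside WT-A, -B, -C and -D.

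Interferons signal through cell-surface receptors and the kinases JAK1 and TYK2 to a complex that holds STAT2 and IRF9 and binds an enhancer sequence called the interferon-stimulated response element (ISRE). The genes so induced make proteins that sense viral RNA, cut it, hold back its translation or attack the vacuoles of intracellular parasites. In the blood system, interferons can drive resting stem cells into cycle, and stem cells hold a basal level of many interferon-induced transcripts without infection.

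The ISRE core, searched on both strands as GAAA, any 2 bases and GAAA again, was present in 18 of 30 promoters listed from RefSeq (GRCm38.p6) for 26 of the 36 genes. This was 60.0%, against 3.44% of all 32851 promoters of the same 300 bases around the transcript start. By gene this was 17 of 26, or 65.4%, against 3.99% of 27025 genes. The 10 genes without an entry were Oas2, Iigp1, Mx1, Mx2, Usp18, Zbp1, Rtp4, Ifi27l2a, Parp14 and Ly6e. The gamma-activated site, searched as TTCNNNGAA on both strands, was in 7 of the 30 promoters (23.3%) and 8.30% of all. The 2 motifs may overlap each other, and a match describes letters and not a bound site. All 3 GBP genes and all 3 IRG genes with a listed promoter held the ISRE core, as did 3 of 4 IFIT genes and 2 of 4 OAS genes (Oas1a and Oas3, but not Oasl1 or Oasl2). Each promoter below is printed 5′ to 3′ on the strand of its gene, with the ISRE core in capitals. They show the element found in each of the 4 families, and the likeness of Ifit3 to Ifit3b. Oas3 lies at chr5:120777610-120777909 (minus strand), Oas1a at chr5:120907476-120907775 (minus), Ifit1 at chr19:34640639-34640938 (plus), Ifit3 at chr19:34583279-34583578 (plus), Ifit3b at chr19:34607707-34608006 (plus), Gbp2 at chr3:142620413-142620712 (plus) and Irgm1 at chr11:48871371-48871670 (minus).
Oas3: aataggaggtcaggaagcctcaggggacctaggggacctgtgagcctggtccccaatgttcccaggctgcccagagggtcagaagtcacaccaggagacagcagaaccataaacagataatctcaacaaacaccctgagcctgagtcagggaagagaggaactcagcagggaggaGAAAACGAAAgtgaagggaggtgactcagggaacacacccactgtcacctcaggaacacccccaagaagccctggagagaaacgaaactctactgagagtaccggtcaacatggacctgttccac
Oas1a: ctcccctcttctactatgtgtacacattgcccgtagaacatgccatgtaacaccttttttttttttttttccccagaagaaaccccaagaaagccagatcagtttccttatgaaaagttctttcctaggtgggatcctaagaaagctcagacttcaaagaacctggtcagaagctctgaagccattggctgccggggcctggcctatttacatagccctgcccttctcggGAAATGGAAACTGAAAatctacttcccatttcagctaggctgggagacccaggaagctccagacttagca
Ifit1: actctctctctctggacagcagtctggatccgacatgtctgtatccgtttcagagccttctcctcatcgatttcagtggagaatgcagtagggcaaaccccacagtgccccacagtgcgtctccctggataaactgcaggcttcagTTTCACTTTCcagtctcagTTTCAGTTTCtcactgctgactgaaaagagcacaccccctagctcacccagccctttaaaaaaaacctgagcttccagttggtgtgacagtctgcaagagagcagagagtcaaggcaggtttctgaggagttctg
Ifit3: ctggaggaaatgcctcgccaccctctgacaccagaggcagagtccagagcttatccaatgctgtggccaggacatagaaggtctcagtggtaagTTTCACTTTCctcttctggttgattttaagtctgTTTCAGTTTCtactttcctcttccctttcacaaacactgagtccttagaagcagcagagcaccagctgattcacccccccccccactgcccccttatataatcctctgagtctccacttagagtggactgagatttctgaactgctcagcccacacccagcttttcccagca
Ifit3b: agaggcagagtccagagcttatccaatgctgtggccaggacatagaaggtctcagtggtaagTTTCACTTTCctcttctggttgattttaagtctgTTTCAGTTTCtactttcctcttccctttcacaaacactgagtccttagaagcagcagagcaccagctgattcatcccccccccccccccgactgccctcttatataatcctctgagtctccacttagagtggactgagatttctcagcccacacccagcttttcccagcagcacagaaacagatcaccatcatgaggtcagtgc
Gbp2: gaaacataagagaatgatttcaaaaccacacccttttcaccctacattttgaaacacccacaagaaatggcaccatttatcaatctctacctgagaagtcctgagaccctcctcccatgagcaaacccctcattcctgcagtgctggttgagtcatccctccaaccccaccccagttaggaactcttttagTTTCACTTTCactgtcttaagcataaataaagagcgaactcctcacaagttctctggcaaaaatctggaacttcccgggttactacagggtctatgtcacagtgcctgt
Irgm1: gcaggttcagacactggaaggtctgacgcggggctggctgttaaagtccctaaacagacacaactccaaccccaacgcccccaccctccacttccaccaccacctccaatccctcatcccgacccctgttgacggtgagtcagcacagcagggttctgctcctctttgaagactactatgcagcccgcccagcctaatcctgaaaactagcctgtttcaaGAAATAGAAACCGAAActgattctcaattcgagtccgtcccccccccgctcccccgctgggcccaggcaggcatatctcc

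In Oas1a and Irgm1, 2 overlapping copies of the core run together close to the start, and in Ifit1, Ifit3 and Ifit3b 2 separate copies lie further upstream and read on the opposite strand, as TTTC, 2 bases and TTTC. Shifted by 32 bases, the Ifit3 and Ifit3b promoters were the same at 201 of 268 aligned bases (75.0%).

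Values are log2 CPM, the log2 of counts scaled to a size set for each library, as deposited. A log2 fold change is the 5G2del mean minus the WT mean, so that negative values are lower in 5G2del. Expected counts per library summed to between 37930174 and 52194274. The size implied by the deposited values was below this sum in 5G2del-C (41220903 against 47664360) and WT-C (34865420 against 42038974). It was above the sum in the other libraries, so 5G2del-C and WT-C values stand higher than scaling to the sum would put them. The part of this scaling in the library differences was not tested. WT-B stood apart, with 0 counts for 1104 of the 16760 genes, where the remaining libraries had 83 to 492 such genes. The genotype labels held for 2 genes of band 5G2. Cux1 was at 7.06, 6.80 and 8.01 in the 5G2del libraries and at 8.59, 8.44, 8.17 and 8.43 in the WT libraries, each in the order of their letters, and Trim56 at 5.14, 5.0 and 4.51 and at 5.88, 6.14, 5.86 and 5.84, without overlap of the groups. Of 8 stem and progenitor markers, all 8 were measured, and Kit lay between 7.98 and 8.23 log2 CPM in all 7 libraries. Slamf1, the gene of the marker that the sort leaves out, was low, at 0.40, 0.63 and 0.65 in 5G2del and -0.29, -1.62, -2.22 and -0.26 in WT, without overlap. Cd48, a marker of progenitors, was at 4.94, 4.01 and 4.79 against 4.58, 2.52, 3.72 and 3.53 (0.99 ± 0.42; limma unadjusted p = 0.0372). The mean of the 8 markers was at 6.18, 6.10 and 6.33 in 5G2del and 5.95, 5.66, 5.86 and 6.02 in WT, with the largest differences in Slamf1 (1.66) and Cd48; the median difference was 0.16, and Flt3 (-0.20) and Ly6a (-0.42) were lower in 5G2del.

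Across the 36 genes the means were mostly lower in 5G2del: 33 were lower and 3 higher, where 46.7% of all genes were lower. Their median log2 fold change was -0.43, against 0.03 over all genes. In limma-trend 0 of the 36, and 0 of all 16760 genes (0%), passed a Benjamini-Hochberg adjusted p of 0.05. At an unadjusted p under 0.05, 9 were lower and 0 higher, where 2.24% of all genes were lower and 1.68% higher. For 4 of them, Oas2, Oas3, Cmpk2 and Ifi44, the highest 5G2del value was under the lowest WT value, as for 2.78% of all genes. The authors' deposited table likewise held 0 genes past an adjusted p of 0.05 (0%), and 8 of the 36 lower at an unadjusted p under 0.05, where 1.66% of all genes were. The members were proposed with earlier results of these data known, so these counts describe them and are not independent support for a direction. In bulk RNA, fewer cells of a type and less RNA per cell cannot be told apart.

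**Figure D1:**
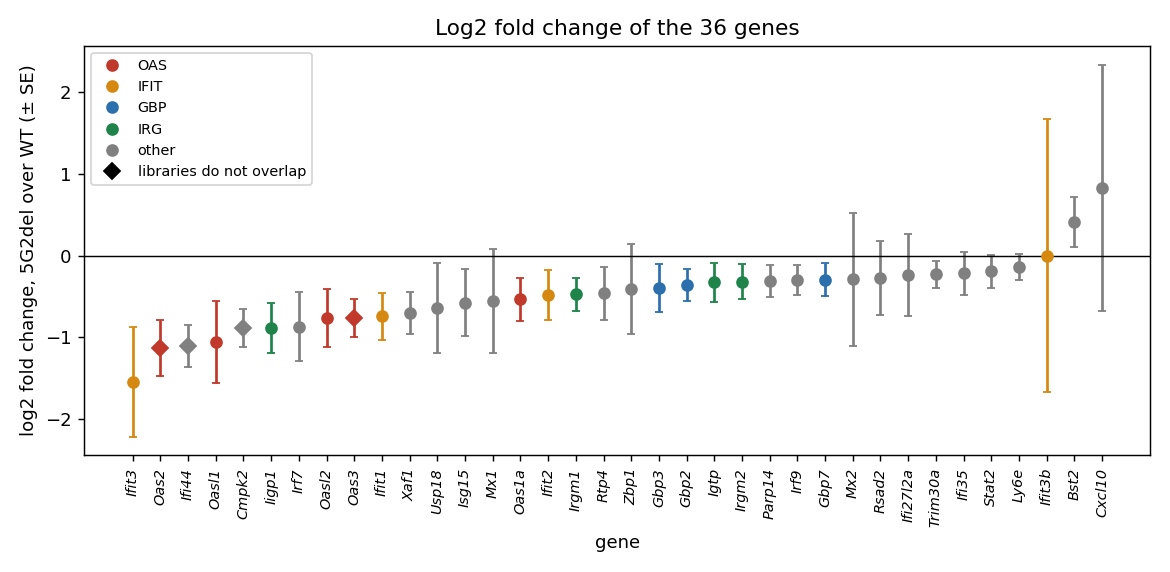
Log2 fold change (5G2del over WT) with its standard error for the 36 genes, in order, coloured by family; diamonds mark genes whose 3 5G2del libraries all lie below the 4 WT libraries. The points run from -1.54 for Ifit3 to 0.83 for Cxcl10, and 33 of 36 lie below 0.

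The mean over the 36 genes was 3.69, 3.53 and 4.14 log2 CPM in the 5G2del libraries and 3.97, 3.67, 4.80 and 4.63 in the WT libraries, or 3.79 ± 0.32 (SD, n = 3) against 4.27 ± 0.53 (SD, n = 4). The groups overlapped: 5G2del-C lay above WT-A and WT-B, and the high WT mean came with WT-C and WT-D. WT-C held the highest value for 21 of the 36 genes and WT-D for 9, although WT-C was highest for only 13.6% of all genes and WT-D for 11.4%. At the low end, 5G2del-B was lowest for 16 of the 36 and 5G2del-A for 8, against 9.73% and 11.6% of all genes, and neither WT-C nor WT-D was lowest for any. A WT library was highest for 34 of the 36 genes (60.2% of all genes), and a 5G2del library lowest for 27 (35.6% of all genes). With WT-C left out the difference of the means went from -0.48 to -0.30, and without WT-B it was -0.68.

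**Figure D2:**
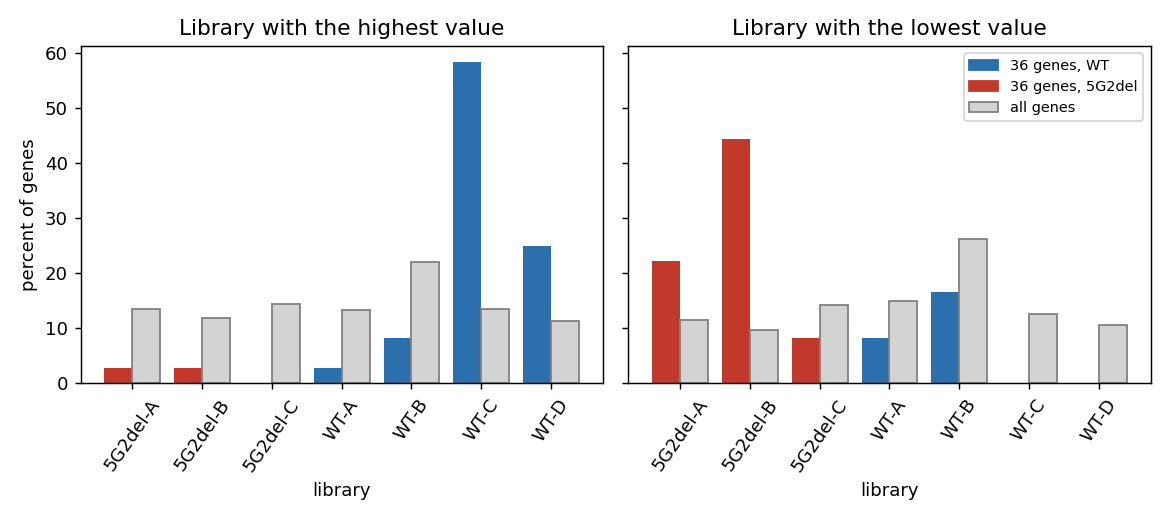
Share of the 36 genes (coloured bars) and of all 16760 genes (grey bars), in percent, for which each library holds the highest (left) or the lowest (right) value. WT-C holds the highest value for 58.3% of the 36 genes and 5G2del-B the lowest for 44.4%.

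Some markers of other cells also differed between libraries. The 10 markers of neutrophils and monocytes summed highest in 1 library of each group, to 1651 CPM for 5G2del-A and to 550 for WT-A. In the rest the sum was 209 or 247 CPM for 5G2del and from 167 to 207 CPM for WT. All 10 had a higher mean in 5G2del, with a median difference of 2.15, and all overlapped between groups. Their mean was at 6.05, 1.38 and 1.16 log2 CPM in 5G2del and 5.11, -0.97, 0.14 and -1.45 in WT. The 7 measured of 9 macrophage markers summed to between 14.8 and 28.1 CPM in 5G2del and between 15.04 and 28.9 in WT. Of these, 4 had a lower mean in 5G2del, among them Cd163 and C1qb without overlap. C1qb had only 4 to 18 counts in the 5G2del libraries. The other 3, Vcam1 (2.04), C1qa (1.21) and Csf1r (1.10), had a higher mean in 5G2del, with overlap. The 3 measured of 8 dendritic cell markers (Tcf4, Ccr9 and Itgax) summed to 85.1 to 129 and to 96.6 to 144 CPM, with Itgax at 0 counts in WT-B; Siglech, Klk1, Cd209a, Clec9a and Xcr1 were not analysed here. The 3 measured of 5 B cell markers summed to 25.2 to 203 CPM in 5G2del and 10.01 to 27.6 in WT, with Igkc at 7.51, 3.15 and 6.84 and 3.44, 2.47, -3.32 and -6.60 log2 CPM. The 3 measured of 8 T and NK cell markers summed to 7.34 to 9.07 CPM in 5G2del and 10.3 to 13.0 in WT, lower in each 5G2del library. Lck, which made up most of each sum, was lower without overlap, though 5G2del-B and WT-C were both at 3.06 log2 CPM. Il2rb (0 counts in 5G2del-A and 5G2del-B) was also lower without overlap. Klrb1c had a higher mean in 5G2del (0.49), with overlap. The 6 measured of 7 erythroid markers summed to 35.4 to 94.8 and to 41.7 to 212 CPM, and the 5 platelet markers to 25.2 to 40.1 and to 18.4 to 33.5, with Treml1 higher in 5G2del without overlap. The part of these cells in the interferon values was not tested. Ly6a, which encodes the stem cell antigen Sca-1 and is itself known to be interferon-inducible, was at 5.91, 6.28 and 6.89 in 5G2del and 5.99, 6.65, 7.25 and 7.22 in WT, highest in WT-C and WT-D.

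The OAS genes, oligoadenylate synthetases that are switched on by double-stranded RNA and activate an RNA-cutting enzyme, were lower in 5G2del in 5 of 5 members. Their median log2 fold change was -0.77, and 2 of them, Oas2 and Oas3, had an unadjusted p under 0.05. Of all genes 46.7% were lower, and 2.24% were lower at such a p. Oas2 was at 3.24, 2.93 and 2.77 log2 CPM in 5G2del and 3.26, 4.09, 4.87 and 4.22 in WT. All 3 5G2del values lay below the lowest WT value, that of WT-A, which was only just above 5G2del-A. Its log2 fold change was -1.13 ± 0.35 (SE), which is 0.456 times the WT level (limma unadjusted p = 0.00724; exact permutation p = 0.0571, two-sided). Oas3, the largest of the synthetases, was at 4.85, 4.73 and 5.06 against 5.45, 5.23, 6.19 and 5.70, a log2 fold change of -0.76 ± 0.23 (limma unadjusted p = 0.00673; exact permutation p = 0.0571). Here too the groups did not overlap, with WT-B lowest and WT-C highest among the WT libraries. The adjusted p was 0.989 for both in limma-trend, and the smallest that exact permutation of 3 and 4 libraries can give is 0.0286.

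Oas1a, a synthetase of the short form, was at 3.81, 4.29 and 4.35 in 5G2del and 4.19, 5.05, 5.03 and 4.47 in WT, with a log2 fold change of -0.54 ± 0.26; WT-A lay among the 5G2del values. Of the 100-base windows in its annotated transcripts, 40.9% are also found in Oas1g, so RSEM may have split its reads, and with the expected counts of both genes summed the log2 fold change was -0.50. Oasl1, an OAS-like gene whose protein lacks synthetase activity and holds back translation of Irf7, was at 2.72, 1.38 and 1.54 against 3.29, 1.66, 3.31 and 3.47, a log2 fold change of -1.06 ± 0.50, with WT-B inside the 5G2del range. Oasl2, an OAS-like gene with synthetase activity, was at 5.43, 5.57 and 6.56 against 6.36, 5.86, 7.41 and 6.84, a log2 fold change of -0.77 ± 0.36. In Oasl2 5G2del-C lay above WT-A and WT-B, and without WT-C the log2 fold change was -0.50. As a mean over the 5 genes, the OAS level was 4.01, 3.78 and 4.05 in 5G2del and 4.51, 4.38, 5.36 and 4.94 in WT (3.95 ± 0.15, SD, n = 3, against 4.80 ± 0.45, SD, n = 4). Of the 4 family means of log2 values this one alone had no overlap, with a gap of 0.32 between 5G2del-C and WT-B. As a sum of CPM, a measure added after seeing the data in which Oasl2 and the other high genes weigh more, the OAS groups overlapped, at 102, 104 and 158 CPM against 164, 149, 315 and 219. All 8 measured of 12 listed OAS genes were lower, with the same 2 at an unadjusted p under 0.05; Oas1b, Oas1c and Oas1g had log2 fold changes from -0.39 to -0.32.

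The OAS genes share chromosome 5 with the deletion but lie far from the genes of band 5G2. On mm10 (GENCODE M21), Oasl2 and Oasl1 lie between 114896936 and 114937915 and Oas2, Oas3 and Oas1a between 120730333 and 120907521, whereas Cux1 lies between 136248135 and 136567490 and Trim56 between 137105644 and 137116209. From the end of Oas1a to the start of Cux1 is 15.3 Mb. The chemokine gene Cxcl10, the other member on chromosome 5, lies between 92346638 and 92348889. The other 30 members lie on 14 other chromosomes.

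**Figure D3:**
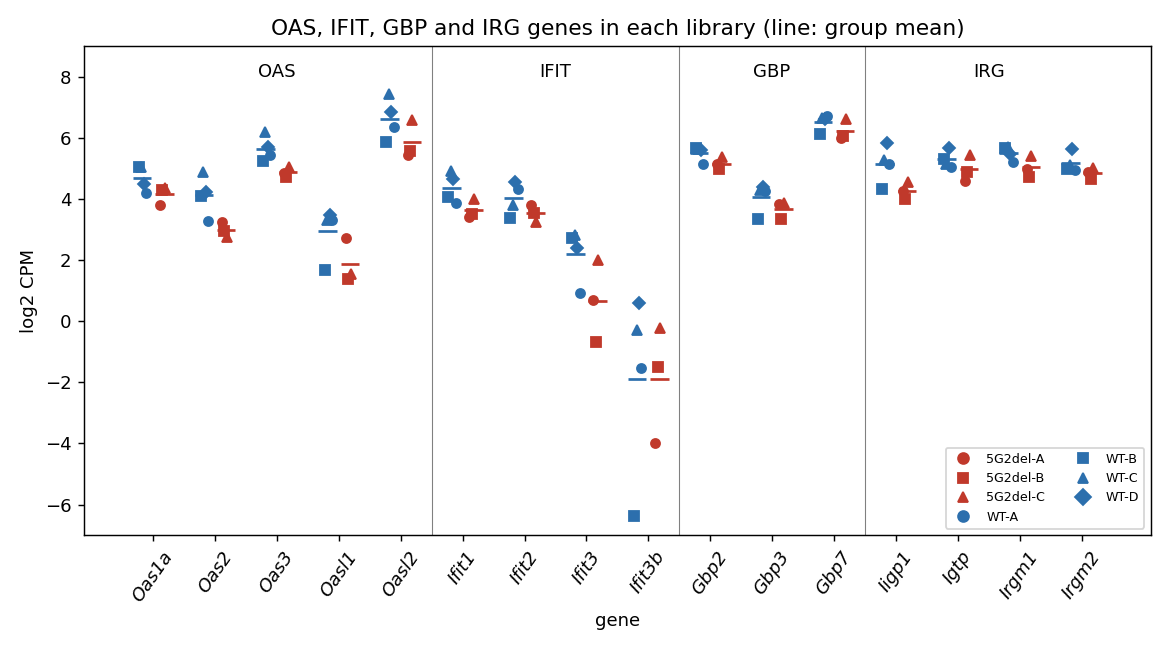
Deposited log2 CPM of the 16 OAS, IFIT, GBP and IRG genes in each WT (blue) and 5G2del (red) library, with a line at each group mean. Only Oas2 and Oas3 show all red points below all blue ones, and Ifit3b, near 0 counts, spreads from -6.37 to 0.60.

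IFIT genes encode proteins of tetratricopeptide repeats, of which IFIT1 binds the 5′ end of foreign RNA and blocks its translation. In 5G2del 3 of 4 were lower (46.7% of all genes), with a median log2 fold change of -0.61. At an unadjusted p under 0.05, 2 were lower (2.24% of all genes). Ifit1 was at 3.39, 3.49 and 3.99 in 5G2del and 3.86, 4.06, 4.91 and 4.63 in WT, a log2 fold change of -0.74 ± 0.29 (limma unadjusted p = 0.0265; exact permutation p = 0.114). The groups overlapped because 5G2del-C lay above WT-A. Ifit2, which binds AU-rich RNA, was at 3.80, 3.54 and 3.25 against 4.33, 3.36, 3.81 and 4.57, a log2 fold change of -0.49 ± 0.31 that went to -0.30 without WT-D, and WT-B was below 5G2del-A and 5G2del-B. Ifit3, an adaptor that stabilises IFIT1, was at 0.68, -0.68 and 1.99 against 0.91, 2.72, 2.82 and 2.38. With a log2 fold change of -1.54 ± 0.67 it was the lowest of the 36 (limma unadjusted p = 0.0423), but the 5G2del values spread over more than the difference, and without 5G2del-B it was -0.87.

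Ifit3b, a copy of Ifit3, was at -3.98, -1.51 and -0.22 against -1.55, -6.37, -0.29 and 0.60, with 0 expected counts in WT-B, 2.16 in 5G2del-A and at most 72.9 in any library. Its log2 fold change of 0.00096 ± 1.68 changed sign with the processing. Of its 100-base transcript windows 27.4% are found in Ifit3, and 31.7% of those of Ifit3 in Ifit3b. With the 2 genes summed, the values were 0.72, -0.049 and 2.27 in 5G2del and 1.15, 2.72, 2.98 and 2.75 in WT, a log2 fold change of -1.42 (exact permutation p = 0.143). The sum, unlike Ifit3b alone, was lower in 5G2del. As a family mean the IFIT level was 0.97, 1.21 and 2.25 in 5G2del and 1.89, 0.94, 2.81 and 3.04 in WT, with WT-B lowest of all 7, where Ifit3b had 0 counts. Without Ifit3b the mean was at 2.62, 2.12 and 3.07 against 3.03, 3.38, 3.85 and 3.86, and only WT-A was below 5G2del-C. As a sum of CPM the IFIT groups did not overlap, at 26.1, 23.9 and 30.2 CPM against 36.8, 33.5, 52.1 and 55.2. The 4 IFIT genes lie near each other on chromosome 19, between 34550694 and 34650009.

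GBP genes encode guanylate-binding proteins, large GTPases that coat and break open the vacuoles of pathogens and respond most to interferon gamma. All 3 were lower in 5G2del (46.7% of all genes), with a median of -0.36 and 0 at an unadjusted p under 0.05. Gbp2 was at 5.12, 4.97 and 5.36 in 5G2del and 5.14, 5.66, 5.64 and 5.61 in WT, a log2 fold change of -0.36 ± 0.19, and only WT-A lay within the 5G2del range. Gbp3 was at 3.82, 3.34 and 3.87 against 4.27, 3.34, 4.28 and 4.39 (-0.40 ± 0.29), and Gbp7 at 6.0, 6.04 and 6.63 against 6.69, 6.12, 6.65 and 6.60 (-0.29 ± 0.20). For both WT-B lay within the 5G2del range, and for Gbp7 WT-D did so too. With 1 library left out Gbp3 ran between -0.64 and -0.23 and Gbp7 between -0.49 and -0.18. The family mean was 4.98, 4.78 and 5.28 in 5G2del and 5.37, 5.04, 5.52 and 5.53 in WT, so that the difference of 5.02 ± 0.25 (SD, n = 3) from 5.37 ± 0.23 (SD, n = 4) was close to the spread of the libraries.

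Further GBP genes from a list drawn up for the pathway lay lower as well. All 10 measured of 11 listed GBP genes, the 3 above included, were lower in 5G2del (46.7% of all genes), with a median of -0.77. At an unadjusted p under 0.05, 2 were lower (2.24% of all genes). Gbp6 was at 3.39, 3.11 and 5.87 against 5.16, 5.52, 5.79 and 6.06, a log2 fold change of -1.51 ± 0.54 (limma unadjusted p = 0.0173), where 5G2del-A and 5G2del-B were low and 5G2del-C lay among the WT libraries; without 5G2del-C it was -2.38 and without 5G2del-B -1.0. Gbp10 was at -1.59, -4.37 and -0.67 against -0.54, 0.48, 1.94 and 0.28 (-2.75 ± 1.02, limma unadjusted p = 0.0203), without overlap but at low counts, and at -1.67 without 5G2del-B. These genes belong to a cluster of close copies on which reads may be split, so single values are uncertain.

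IRG genes encode immunity-related GTPases of smaller size. Among them IRGM1 and IRGM2 guard the cell's own membranes, and IIGP1 (the product of Iigp1) acts at parasite vacuoles. All 4 were lower in 5G2del (46.7% of all genes), with a median of -0.40. At an unadjusted p under 0.05, 2 were lower (2.24% of all genes). Iigp1 was at 4.24, 3.99 and 4.56 in 5G2del and 5.15, 4.34, 5.27 and 5.84 in WT, a log2 fold change of -0.88 ± 0.31 (limma unadjusted p = 0.0157; exact permutation p = 0.0857). Only WT-B was inside the 5G2del range. Irgm1, whose loss in mice is known to impair stem cell function, was at 4.98, 4.73 and 5.38 against 5.22, 5.65, 5.68 and 5.48, a log2 fold change of -0.48 ± 0.20 (limma unadjusted p = 0.0396; exact permutation p = 0.0857), and 5G2del-C lay above WT-A. Igtp was at 4.57, 4.87 and 5.44 against 5.03, 5.32, 5.15 and 5.66 (-0.33 ± 0.24, and -0.13 without 5G2del-A), and Irgm2 at 4.86, 4.63 and 5.02 against 4.95, 4.97, 5.09 and 5.62 (-0.32 ± 0.21, and -0.16 without WT-D). Both overlapped between groups. Their annotated spans overlap on the same strand of chromosome 11, and with the 2 summed the log2 fold change was -0.32.

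All 11 measured and listed IRG genes were lower, with a median of -0.49 and 6 at an unadjusted p under 0.05, which is 6 of 11 where 2.24% of all genes were. Besides Iigp1 and Irgm1 these were Tgtp1 (6.12, 6.14 and 6.35 against 6.40, 6.64, 7.22 and 7.07; -0.63 ± 0.20), Tgtp2 (-0.45 ± 0.20), Ifi47 (6.15, 6.24 and 6.03 against 6.44, 6.36, 6.41 and 6.73; -0.35 ± 0.15) and F830016B08Rik (-1.57 ± 0.53). In Tgtp1 and Ifi47 the groups did not overlap. Tgtp1 and Tgtp2 are near-identical, so the split between them is uncertain.

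Set side by side, the family medians over the members were -0.77 for OAS, -0.61 for IFIT, -0.40 for IRG and -0.36 for GBP, and the order was not tested. Over all measured genes listed for each family they were -0.77 for GBP, -0.65 for OAS, -0.61 for IFIT and -0.49 for IRG. The order thus depended on which genes of a family were taken. Over the members it also changed when a library was left out. Without WT-B the IFIT median was -1.11 and the OAS median -1.02. In that fit the IRG median of -0.40 lay closer to 0 than the GBP median of -0.42. The GBP median was -0.23 without 5G2del-B, and without 5G2del-C the IRG median was -0.61. Within 5G2del the OAS means over the members spread least (SD 0.15), against 0.25 for GBP, 0.29 for IRG and 0.68 for IFIT. Within WT this was not so, with SD 0.45 for OAS, 0.23 for GBP, 0.27 for IRG and 0.96 for IFIT. Over all measured genes listed for each family, the SD within 5G2del was 0.071 for IRG, 0.19 for OAS, 1.02 for IFIT and 1.04 for GBP. In the mean log2 CPM of the IFIT, GBP and IRG families 5G2del-C lay above at least 1 WT library. WT-D was highest in these 3, and WT-C in OAS.

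**Figure D4:**
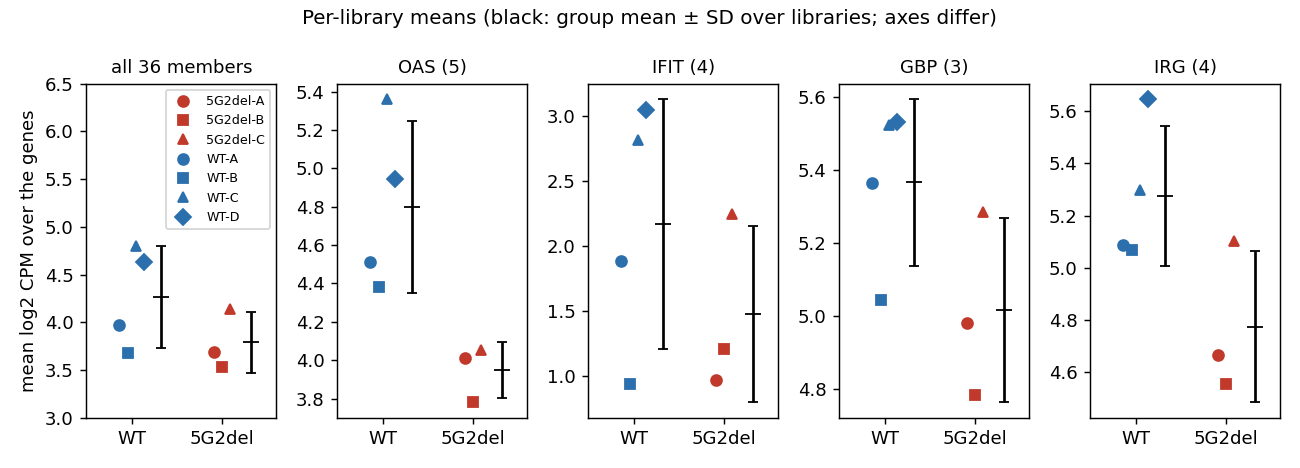
Mean log2 CPM over all 36 genes and over each of the 4 families in every library (WT blue, 5G2del red), with the group mean ± SD over libraries in black; the vertical axes differ. On this log2 scale the OAS groups are apart, from 4.05 at most in 5G2del to 4.38 at least in WT; as sums of CPM the OAS groups overlap and the IFIT groups do not.

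The transcription factors among the members are parts of the response loop: IRF9 and STAT2 form its main activator, and IRF7, itself induced, raises interferon production. Irf7 was at 2.92, 2.39 and 3.39 in 5G2del and 3.58, 2.72, 4.56 and 4.21 in WT, a log2 fold change of -0.87 ± 0.42 (limma unadjusted p = 0.0635), with WT-B inside the 5G2del range. Irf9 was at 5.86, 5.55 and 6.30 against 6.13, 6.17, 6.30 and 6.20 (-0.30 ± 0.19). The 4 WT values were close together, and 5G2del-C nearly reached the highest of them; without 5G2del-B the difference was -0.12. Stat2 was at 5.41, 4.68 and 4.89 against 5.09, 5.14, 5.35 and 5.15 (-0.19 ± 0.20), with 5G2del-A highest of all 7, and without 5G2del-B it was -0.033. None of the 3 had an unadjusted p under 0.05.

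Among the other members, Ifi44, a cytoplasmic protein of little-known function that lowers proliferation, had the smallest p. It was at 4.89, 4.93 and 5.24 in 5G2del and 5.57, 5.86, 6.75 and 6.34 in WT, a log2 fold change of -1.11 ± 0.26, which is 0.463 times the WT level (limma unadjusted p = 0.00128, adjusted p = 0.989; exact permutation p = 0.0571). All 4 WT libraries lay above all 5G2del libraries, WT-C and WT-D by the most. Cmpk2, a mitochondrial nucleotide kinase, was at 3.71, 3.29 and 3.81 against 4.19, 4.68, 4.71 and 4.37, a log2 fold change of -0.89 ± 0.23 (limma unadjusted p = 0.0027; exact permutation p = 0.0286, the smallest possible). In Cmpk2 WT-B was as high as WT-C, and WT-A was the lowest WT library in both genes. Xaf1, which counteracts the apoptosis inhibitor XIAP, was at 4.17, 3.91 and 4.42 against 4.23, 4.99, 5.22 and 5.03 (-0.70 ± 0.26; limma unadjusted p = 0.0202), and 5G2del-C lay above WT-A. With each library left out in turn, 4 members, Oas2, Oas3, Cmpk2 and Ifi44, had an unadjusted p under 0.05 in limma-trend in all 7 fits. Of the 36, 28 were lower in all 7. The 7 fits share most of their libraries, and the shares of all genes that do the same were not computed.

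Rsad2 lies next to Cmpk2 on chromosome 12, on the opposite strand, and encodes viperin, whose product, made from a nucleotide, stops viral polymerases. The 2 genes are known to be induced together. Rsad2 was at 3.42, 2.89 and 4.29 in 5G2del and 3.81, 2.65, 4.50 and 4.27 in WT (-0.27 ± 0.45). 5G2del-C was above WT-A and WT-D, WT-B was lowest of all 7, and the sign turned without 5G2del-B (0.050). Isg15, a ubiquitin-like modifier, was at 2.96, 2.45 and 1.98 against 2.58, 2.38, 3.81 and 3.40 (-0.58 ± 0.41, and -0.32 without WT-C). Usp18, the protease that removes ISG15 and damps the receptor, was at 2.43, 2.84 and 2.07 against 3.40, 1.39, 4.16 and 3.42 (-0.64 ± 0.55, and -0.28 without WT-C). For Isg15 WT-A and WT-B lay inside the 5G2del range, and for Usp18 WT-B was lowest of all 7 while the other WT libraries lay above all 5G2del libraries.

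The Mx genes encode dynamin-like GTPases that block viral replication; laboratory strains such as C57/B6 are known to carry defective copies, and the annotation classes Mx2 as a polymorphic pseudogene. Mx1 was at 1.75, 0.26 and 3.03 in 5G2del and 1.42, 2.59, 3.13 and 1.80 in WT (-0.56 ± 0.64), and Mx2 at 0.17, 1.23 and 1.85 against 0.46, -0.40, 3.20 and 2.24 (-0.29 ± 0.82). Both spread by more within a group than the groups differed, and the sign turned without 5G2del-B for Mx1 (0.15) and without 5G2del-A (0.16) or WT-C (0.32) for Mx2.

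Of the 2 members with a positive difference beside Ifit3b, Bst2, the tetherin that holds budding virions, was at 4.39, 4.73 and 4.55 in 5G2del and 3.26, 4.33, 4.27 and 4.69 in WT (0.41 ± 0.31), a difference that went to 0.12 without WT-A. Cxcl10, a T cell chemokine, was at 0.35, -0.70 and 2.46 against -0.059, -4.79, 2.46 and 1.87 (0.83 ± 1.51), with 1 count in WT-B. Without WT-B it was -0.72 and without 5G2del-C -0.047, so its higher mean rested on these libraries. Neither had an unadjusted p under 0.05.

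The remaining members overlapped between groups, with log2 fold changes between -0.46 and -0.14. They were the chaperone-like receptor transporter gene Rtp4 (-0.46), the nucleic acid sensor Zbp1 (-0.40), the ADP-ribosyltransferase Parp14 (-0.31), Ifi27l2a (-0.23), the ubiquitin ligase Trim30a (-0.23), Ifi35 (-0.22) and the surface protein Ly6e (-0.14). Per kilobase of exon Ly6e had the highest level of the 36, at 122 CPM per kb in WT and 110.0 in 5G2del, and Ifit3b the lowest, at 0.336 and 0.212. Without WT-D the sign of Zbp1 turned (0.015), and that of Ifi27l2a turned without 5G2del-B (0.19) or WT-C (0.027). Rtp4 was at -0.19 without WT-C. With 1 library left out Parp14 ran between -0.48 and -0.20, Trim30a between -0.31 and -0.13, Ifi35 between -0.36 and -0.11 and Ly6e between -0.24 and -0.080. In all, 24 of the 36 log2 fold changes moved by over 1.5 times in at least 1 of the 7 such fits. Small differences pass this ratio most easily, and the share of all genes that do so was not computed.

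The genes above the members in the pathway were taken from lists drawn up with earlier results of these data known. The 9 listed interferon ligand genes were not analysed here. Of 9 receptor and kinase genes 8 were measured, 7 lower (46.7% of all genes), with a median of -0.27. Only 1 had an unadjusted p under 0.05: Jak2, the kinase of the interferon gamma and of several cytokine receptors, was at 5.34, 5.10 and 5.37 in 5G2del and 5.90, 5.38, 5.79 and 5.72 in WT without overlap (-0.43 ± 0.18; limma unadjusted p = 0.0345). The type I receptor genes Ifnar1 and Ifnar2 had log2 fold changes of -0.11 ± 0.17 and -0.26 ± 0.17, and the kinase genes Jak1 and Tyk2 of -0.040 ± 0.13 and 0.14 ± 0.31; Tyk2 turned sign without 5G2del-A (-0.19) or WT-D (-0.031).

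Of the further factor genes shown here, Stat3 and Irf2 had an unadjusted p under 0.05 without overlap of the groups. Stat3, which transmits cytokine signals such as that of interleukin 6, was at 6.58, 6.39 and 6.48 in 5G2del and 6.87, 7.13, 6.60 and 6.82 in WT (-0.37 ± 0.16; limma unadjusted p = 0.0392), with 5G2del-A just below WT-C. Irf2, a factor that competes with activators at the ISRE, was at 5.37, 5.23 and 5.40 against 5.74, 5.54, 5.61 and 5.82 (-0.35 ± 0.16; limma unadjusted p = 0.0497). Irf1, Irf3, Irf5 and Irf8 overlapped between groups, with log2 fold changes of -0.14 ± 0.22, 0.14 ± 0.21, 0.23 ± 0.43 and -0.59 ± 0.45.

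Of 9 genes for inhibitors of the pathway, 7 were lower (46.7% of all genes) with a median of -0.10, and 0 had an unadjusted p under 0.05. The 2 with the smallest p were Irf2bp1 at 0.50 ± 0.25, higher in 5G2del without overlap, and Socs1, which blocks JAK kinases, at -1.01 ± 0.77 (-0.29 without 5G2del-C). Of 18 listed names of sensor genes 14 were measured, 10 lower, where 46.7% of all genes were. At an unadjusted p under 0.05, 3 were lower, where 2.24% of all genes were. Trim56, a ubiquitin ligase that promotes nucleic acid sensing, is a gene of band 5G2 and was described above (-1.05 ± 0.19). The helicase genes for RNA sensing Ifih1, at 5.30, 5.39 and 5.92 against 6.04, 5.86, 6.29 and 6.12 (-0.54 ± 0.19), and Dhx58, at 2.66, 3.49 and 4.39 against 4.31, 5.06, 4.48 and 4.60 (-1.10 ± 0.36), are themselves interferon-induced; Dhx58 was at -0.67 without 5G2del-A.

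A further list of 50 interferon-induced genes outside the 36 had 46 measured members. Of these 38 were lower and 8 higher, with a median of -0.19, and 7 were lower at an unadjusted p under 0.05, or 7 of 46 where 2.24% of all genes were. The 6 with the smallest p were Tnfsf10, the death ligand TRAIL (5.58, 5.45 and 5.58 against 6.11, 5.81, 6.0 and 6.0, without overlap; -0.45 ± 0.15), Slfn5 (-0.75 ± 0.28), Dtx3l, a ubiquitin ligase (-0.44 ± 0.17), Ifi203 (-0.50 ± 0.21), Sp100, of nuclear bodies (-0.48 ± 0.21), and Ddx60 (-0.66 ± 0.29). Slfn5 was at -0.49 without 5G2del-A, Ifi203 at -0.31 without WT-C and Ddx60 at -0.42 without 5G2del-B.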

How the data were processed

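The authors measured RNA by sequencing in 7 libraries, from amplified RNA prepared with Trizol, per the labels' protocols. The submitters' processing notes name STAR 2.7.9a, RSEM 1.3.0 and limma 3.50.3 and the builds mm10 and GRCh38, without a role. The authors deposited 1 table of log2 CPM per library for 16760 genes with a log2 fold change, a t score, a p-value and a q-value per gene, which the authors computed; the annotation, low-value filter and scaling were not given in the sources used here. Genes below that filter were not analysed here.

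From the log2 CPM, limma 3.58.1 in R 4.3.3 was fitted with a trend in the prior variance over all genes and all 7 libraries, without covariates; adjusted p-values are Benjamini-Hochberg over 16760 genes. Single values were also compared by two-sided exact permutation over 35 divisions of the libraries. The lowest value of each library was taken as 0 counts with an offset of 0.5, which gave expected counts; a voom fit on them differed from the authors' deposited log2 fold changes by at most 4.49e-14. A count of 3 corresponds to 0.0538 to 0.0860 CPM and covers counting error only. RSEM shares reads between like genes and strand is not stated, so copies, overlapping genes and antisense partners are uncertain. The fit was tested on simulated data with planted shifts larger than the difference of any member. That test does not show whether differences of the size seen here would be found. Positions are from GENCODE M21 (mm10) by gene identifier, promoters from RefSeq (GRCm38.p6).

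The members and lists were chosen with earlier results of these data known. Every gene of the 4 families and the 3 factors was named, other members where their p was under 0.05, their groups did not overlap or their value was extreme, and at most 6 genes of each pathway list by p, with Ifnar1, Ifnar2, Jak1 and Tyk2 always; 1 listed gene is not reported here. Other members were given by log2 fold change; the values by library of Rsad2, Isg15, Usp18, Mx1, Mx2 and Bst2 were added after they were seen. The gene pairs whose counts were summed, and the sums of CPM by family, were chosen after seeing the data. Alternatives were no trend, voom, quantile normalization, median centring, log2(CPM + 1), a filter at a mean log2 CPM of 0, arrayWeights and each library left out.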

Additional observations from a re-analysis of the deposited data

Results flagged for a closer look

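Among 41 sets of 4 WT values examined (each of the 36 genes, the 4 family means and the mean of all 36), 4 had 1 library far from the other 3 relative to their range, where chance gives about 1 in 20. For Oasl1, WT-B at 1.66 log2 CPM lay below the others at 3.29 to 3.47. For Gbp3, WT-B at 3.34 lay below 4.27 to 4.39. For Gbp7, WT-B at 6.12 lay below 6.60 to 6.69. For Gbp2, WT-A at 5.14 lay below 5.61 to 5.66. WT-B is the library with the most genes at 0 counts (1104), and without it the log2 fold changes of Oasl1, Gbp3 and Gbp7 were -1.48, -0.64 and -0.42; that of Gbp2 without WT-A was -0.48. Groups of 3 libraries were not examined in this way.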

How the results depend on the processing

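No member passed the adjusted threshold under any alternative that was run, and the median log2 fold change of the 36 lay between -0.72 (arrayWeights) and -0.31 (without WT-D). The number of genes called was 1 without the trend (Sfrp5), and from 0 to 1 with a library left out (Thbs1 without 5G2del-C). The count of members lower at an unadjusted p under 0.05 was 4 without the trend and 22 with arrayWeights. It ran from 4 (5G2del-B) to 15 (5G2del-C) with a library left out, being 14 without WT-B and 5 without WT-C or WT-D. In these fits 31 to 35 members were lower. The shares of all genes under each alternative were not computed, so a change in these counts cannot be read as particular to the members. Family medians kept their sign in all alternatives, and the OAS means did not overlap with quantile normalization, median centring or log2(CPM + 1). As the log2 of summed CPM, added after seeing the data, the lowest WT minus the highest 5G2del library went from 0.32 to -0.085 for OAS and from -1.31 to 0.15 for IFIT (-0.040 as the mean without Ifit3b). Ifit3b turned to -0.051 with voom, -0.53 with quantile normalization, -0.021 with median centring, -0.19 with log2(CPM + 1) and -1.12 with arrayWeights, and Cxcl10 to -0.72 with arrayWeights; the cause was not tested. With 1 library left out, Ifit3b ran between -1.49 and 1.04, Cxcl10 between -0.72 and 1.70, Mx1 between -1.23 and 0.15, Mx2 between -0.88 and 0.32, Rsad2 between -0.66 and 0.050, Ifi27l2a between -0.57 and 0.19, Zbp1 between -0.87 and 0.015 and Tyk2 between -0.19 and 0.34. No paired analysis was possible because the columns carry no replicate number of the labels. At this depth no direction was detectable for Ifit3b, which had 0 expected counts in WT-B.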

Other observations

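Among the 26 members with a listed promoter, the 17 that held the ISRE core had a median log2 fold change of -0.33 (from -1.54 to 0.83), and the 9 without it, among them Ifi44, Cmpk2, Oasl1 and Oasl2, of -0.77 (from -1.11 to -0.22). Both Ifi44 and Cmpk2, whose groups did not overlap, thus have no match to these letters in the 300 bases examined. Oas3, also without overlap, held the core, and Oas2, the remaining member without overlap, had no listed promoter. The search allowed only 2 bases between the copies of GAAA and counted no near matches. A missing match is therefore not a missing element. The difference between these sets was not tested.

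Within groups, the 31 members with a mean log2 CPM over 2 had a median residual SD of 0.42 on the log2 scale, against 0.32 for all 10358 genes over that level, a difference that was not tested. The widest WT spread of a member was that of Cxcl10 (SD 3.29), from 1 count in WT-B to 192 in WT-C, and the narrowest that of Irf9 (SD 0.074).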
